A study of Mus musculus with 30 samples.

Results

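The transcripts described here come from imprinted genes that lie outside the large imprinted region at the distal end of mouse chromosome 7. A list of 41 gene names set the members. The count table of 25400 genes held 38 of them, 37 by symbol and Nespas by its Ensembl identifier, and 37 of these 38 passed the filter on low counts among 16582 genes tested. Slc22a2, an organic cation transporter, was removed by that filter, with 0 to 0.0831 CPM (counts relative to the TMM-scaled total of the library) over all libraries, and Rian, Mirg and Snrpn were not used here.

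Poly-A RNA of cells at the neural progenitor cell (NPC) stage was sequenced from 8 lines, with 3 libraries each, that descend from the HA36CB1 embryonic stem cells of a 129 by C57BL/6 cross, to ask which parts of the MBD2 and MBD3 proteins serve the NuRD chromatin remodelling complex during differentiation. WT cells carried intact Mbd3. Mbd3 KO cells had exons of Mbd3 deleted with CRISPR-Cas9, and the other 6 lines were Mbd3 KO cells that expressed a biotin-tagged protein from a CAG promoter at 1 defined genomic site. These proteins were full-length MBD3a, MBD3delMBD without its methyl-CpG binding domain (MBD), full-length MBD2a, MBD2a_delGR without its glycine-arginine stretch, MBD2a_R181C with a point mutation in the MBD, and MBD2t, a truncated form. The libraries of a line came from individually picked clones, except that the 3 MBD2t libraries were repeats of 1 clone, so that their spread holds no difference between clones. Libraries are named s01 to s24 as in the count table, 3 to a line, in the order WT, Mbd3 KO, MBD3a, MBD3delMBD, MBD2a, MBD2a_delGR, MBD2a_R181C and MBD2t. A line that ran from s07 to s09, for example, is MBD3a. The names carry no replicate number, and p-values measure the spread between these libraries. An exact permutation test on 3 libraries against 3 cannot give a two-sided p below 0.1, so single genes were tested in a model over all genes.

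Imprinted genes are transcribed mainly from the maternal or the paternal copy, some of them only in certain tissues or for certain transcripts. For many the choice is set by DNA methylation at imprinting control regions. It is laid down in the germ line and is kept through later divisions. ZFP57, a zinc finger protein, helps to hold that methylation together with TRIM28. MBD2 binds methylated CpG, and both MBD2 and MBD3 are subunits of NuRD, which deacetylates and remodels nucleosomes. Many imprinted genes act in the placenta, in fetal growth and in the brain. The counts carry no information on alleles, so each value below is the sum of both copies. In bulk RNA, fewer cells of a type and less RNA per cell cannot be told apart.

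The RefSeq promoter table (GRCm38.p6), which gives 300 bases for each transcription start, 250 before it and 50 after it, matched 34 of the 41 members with 49 windows. The counts were made on another build (mm9), so the positions of the windows are not those of the counts. The windows of the members held a median of 15.0 CpG against 7.0 over all 32851 windows. The hexamer TGCCGC, the core of the ZFP57 motif, was searched on both strands (TGCCGC or GCGGCA). It stood in 14 of the 49 windows (28.6%), of 13 members, against 11.6% of all windows. Among the 14, the Mest windows that start at chr6:30737800 and chr6:30737803 overlap. The hexamer holds a CpG itself and the members' windows held more CpG. The shares were not compared at equal CpG number, so they do not show an excess of the motif as such. The windows shown belong to Grb10, Zim1 and Plagl1, each with a library more than 4-fold from both others of its line, and to Peg3, the neighbour of Zim1, and CpG sites are in capitals.

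Grb10 upstream start, chr11:12037371-12037670, minus strand: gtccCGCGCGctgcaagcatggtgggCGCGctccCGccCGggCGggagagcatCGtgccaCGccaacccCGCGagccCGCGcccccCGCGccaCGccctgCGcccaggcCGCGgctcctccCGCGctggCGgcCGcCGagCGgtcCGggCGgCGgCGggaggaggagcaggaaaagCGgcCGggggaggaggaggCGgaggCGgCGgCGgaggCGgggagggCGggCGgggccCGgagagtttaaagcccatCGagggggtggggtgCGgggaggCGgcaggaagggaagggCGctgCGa

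Grb10 downstream start, chr11:12027922-12028221, minus strand: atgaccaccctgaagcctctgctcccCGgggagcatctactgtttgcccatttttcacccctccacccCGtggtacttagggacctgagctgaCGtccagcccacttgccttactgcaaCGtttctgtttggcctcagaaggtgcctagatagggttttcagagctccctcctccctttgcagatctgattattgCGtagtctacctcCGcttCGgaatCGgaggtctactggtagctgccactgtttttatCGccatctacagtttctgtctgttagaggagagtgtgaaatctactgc

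Peg3, chr7:6730370-6730669, minus strand: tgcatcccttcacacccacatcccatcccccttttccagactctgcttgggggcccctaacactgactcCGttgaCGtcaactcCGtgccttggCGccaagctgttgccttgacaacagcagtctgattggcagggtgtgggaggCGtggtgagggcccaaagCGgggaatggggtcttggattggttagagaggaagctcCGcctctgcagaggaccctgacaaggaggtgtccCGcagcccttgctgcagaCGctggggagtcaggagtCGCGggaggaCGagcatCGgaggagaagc

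Zim1, chr7:6696383-6696682, minus strand: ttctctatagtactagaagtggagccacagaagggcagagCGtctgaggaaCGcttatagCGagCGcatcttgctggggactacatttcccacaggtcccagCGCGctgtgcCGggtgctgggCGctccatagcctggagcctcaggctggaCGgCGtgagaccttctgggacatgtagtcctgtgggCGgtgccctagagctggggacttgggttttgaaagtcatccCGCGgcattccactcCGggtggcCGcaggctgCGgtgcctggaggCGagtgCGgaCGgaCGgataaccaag

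Plagl1, chr10:13090582-13090881, plus strand: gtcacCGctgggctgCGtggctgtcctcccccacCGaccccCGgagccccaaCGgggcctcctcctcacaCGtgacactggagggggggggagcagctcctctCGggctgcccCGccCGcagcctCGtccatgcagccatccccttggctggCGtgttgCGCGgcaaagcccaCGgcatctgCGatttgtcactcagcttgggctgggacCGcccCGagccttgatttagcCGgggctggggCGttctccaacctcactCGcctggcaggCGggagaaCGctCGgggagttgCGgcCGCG

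The 2 Grb10 windows were unlike each other. The upstream one held 45 CpG, a number that 1.93% of all windows reached, and 1 copy of the hexamer, and the downstream one held 9 CpG (45.8% of all windows held at least as many) and none. The Peg3 window held 13 CpG and no hexamer, and it overlapped the window of Usp29 on the other strand. The windows of Zim1 and Plagl1 held 20 and 26 CpG and 1 hexamer each. These are matches of letters and say nothing of the methylation of the cells.

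Total counts per library ran from 27993858 to 49392806 with a median of 36797095, and 3 counts correspond to 0.0607 to 0.115 CPM. Intervals of such values cover counting error only. Mbd3 reads fell from 149 to 157 CPM in WT to 34.3 to 73.8 CPM in Mbd3 KO (log2 -1.38, adjusted p = 0.000283, edgeR quasi-likelihood), and stood at 168 to 198 CPM in MBD3a and 423 to 496 CPM in MBD3delMBD. Mbd2 reads reached 280 to 700 CPM in MBD2a_delGR, 253 to 326 in MBD2a_R181C and 335 to 356 in MBD2t. In the line labelled MBD2a they were at 67.0 to 87.2 CPM, which overlapped the 64.3 to 70.9 CPM of Mbd3 KO (log2 0.26 ± 0.21, adjusted p = 0.508, edgeR), so the counts did not set that line apart by its added gene, and the comparisons of MBD2a below carry this limit. For protein, the paper reports equal levels of MBD2a and MBD2a_delGR by Western blot in the embryonic stem cell lines. The neural markers were low in Mbd3 KO, with a summed level of 208 to 303 CPM against 1810 to 2917 CPM in WT, and all 9 of 9 tested were called lower. Similar sums stood in MBD2a (148 to 371 CPM) and MBD2t (251 to 281 CPM). In the same 3 lines the pluripotency markers summed to 315 to 1003, 343 to 683 and 545 to 692 CPM (22.7 to 169 in WT) and the trophoblast markers to 507 to 679, 57.0 to 447 and 359 to 429 CPM (15.2 to 37.6 in WT). None of these markers stood at 0 in a whole line. In those 3 lines the markers of the labelled cell type were therefore low. The endoderm markers summed to 689 to 841 CPM in WT, 640 to 3595 in MBD2a and 991 to 17030 in MBD2a_delGR. Against WT, 9 of 10 endoderm markers were called higher in MBD2a_delGR, 6 in MBD2a, 2 in Mbd3 KO and 2 in MBD2t, where 1 was lower. MBD2a_delGR therefore also differed from WT in markers. The part of other cell types in the changes below was not tested.

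A gene was called at an adjusted p-value under 0.05 (edgeR quasi-likelihood test, Benjamini-Hochberg over the 16582 genes) and a log2 fold change beyond 1 in either direction. Between Mbd3 KO and WT 16 of the 37 members were called (6 higher, 10 lower), which is 43.2% against 33.8% of all genes. Between MBD2a and WT 17 were called (5 higher, 12 lower), or 45.9% against 30.6%, and between MBD2t and WT 16 (6 higher, 10 lower), or 43.2% against 33.4%. The members' median log2 fold change was -0.40 in Mbd3 KO, -0.73 in MBD2a and -0.50 in MBD2t, beside medians over all genes of -0.03, -0.01 and -0.04. These comparisons share the 3 WT libraries, so their values are set side by side and not counted as repeats. Without library s04 the Mbd3 KO count was 15, and without s15 the MBD2a count was 13. Of the 20 tested members that are known for paternal expression, 4 were called higher and 8 lower in Mbd3 KO. Of the 16 known for maternal expression, 2 were called in each direction, and the share of all genes was 33.8%. For several members the known allele holds only in some tissues or transcripts, such as the placenta for Slc22a3 and the brain for Kcnk9. The allele used in these cells was not measured.

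In the other 4 lines no member was called against WT by this test. The share of all genes was 0% in MBD3a, 0.0181% in MBD3delMBD, 5.16% in MBD2a_delGR and 0.0181% in MBD2a_R181C. At an unadjusted p under 0.05 the members counted 1, 6, 7 and 2 in that order, and DESeq2 called 0 in each. Leaving out s16 brought 1 call in MBD2a_delGR. In MBD2a_delGR, 2 members passed the adjusted p without the fold: Igf2r at a log2 fold change of 0.70 ± 0.22 (SE; adjusted p = 0.0483, edgeR) and Mcts2 at -0.74 ± 0.19 (adjusted p = 0.0277, edgeR).

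**Figure D1:**
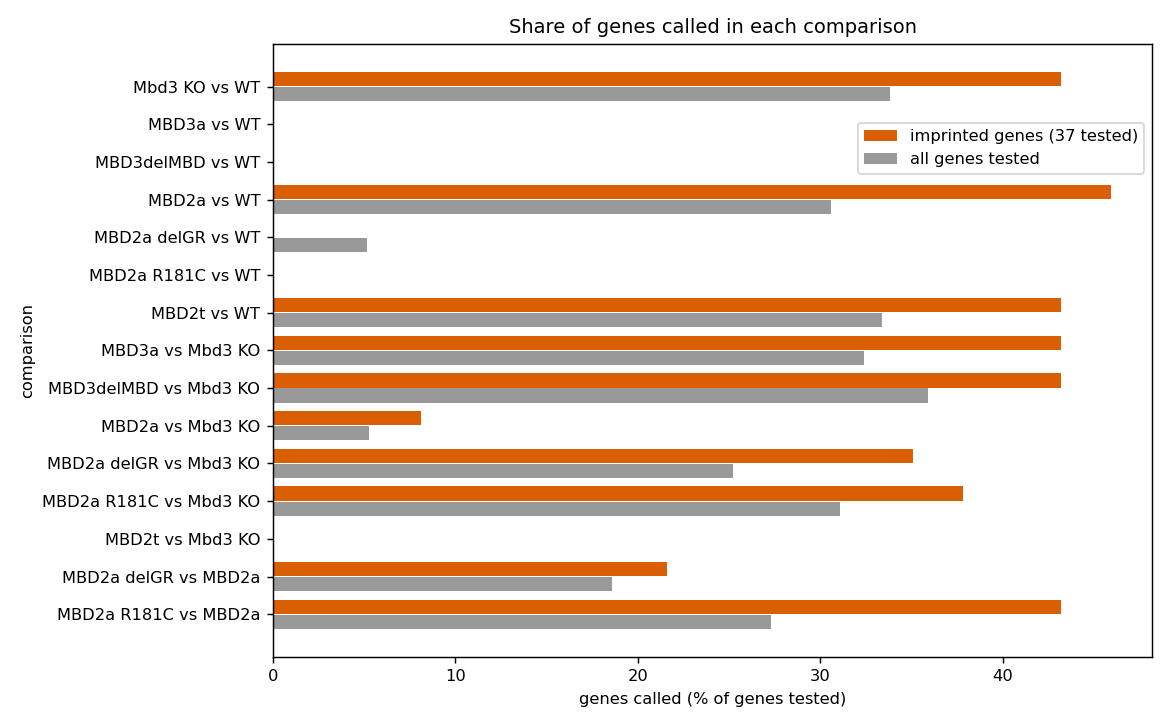
Share of genes called in each of the 15 comparisons, in percent of genes tested, for the 37 imprinted genes (orange) and all 16582 genes (grey). The orange bars reach 43.2% in Mbd3 KO, 45.9% in MBD2a and 43.2% in MBD2t against WT and are at 0 in the other 4 lines against WT.

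Against Mbd3 KO, which these comparisons share, the members called were 16 in MBD3a (10 higher, 6 lower; 43.2% against 32.4% of all genes), 16 in MBD3delMBD (10 higher, 6 lower; 35.9% of all genes), 13 in MBD2a_delGR (7 higher, 6 lower; 25.2%) and 14 in MBD2a_R181C (7 in each direction; 31.1%). MBD2a differed from Mbd3 KO in 3 members, all lower (5.25% of all genes), and MBD2t in none (0.0241% of all genes), with 2 at an unadjusted p under 0.05 and 0 by DESeq2. Within the MBD2a variants, MBD2a_delGR differed from MBD2a in 8 members (4 in each direction; 18.6% of all genes) and MBD2a_R181C in 16 (10 higher, 6 lower; 27.3% of all genes). The members' shares in MBD2a against Mbd3 KO (8.11%) and in MBD2a_delGR against MBD2a (21.6%) were near those of all genes. In none of the 15 comparisons was the members' share tested against that of all genes. The other shares therefore do not show an excess among members either. Single libraries moved several of these counts. The 16 members of MBD2a_R181C against MBD2a became 9 without s15 or without s19, the 13 of MBD2a_delGR against Mbd3 KO became 8 without s06, and the 3 of MBD2a against Mbd3 KO became 0 without s06 or without s14.

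**Figure D2:**
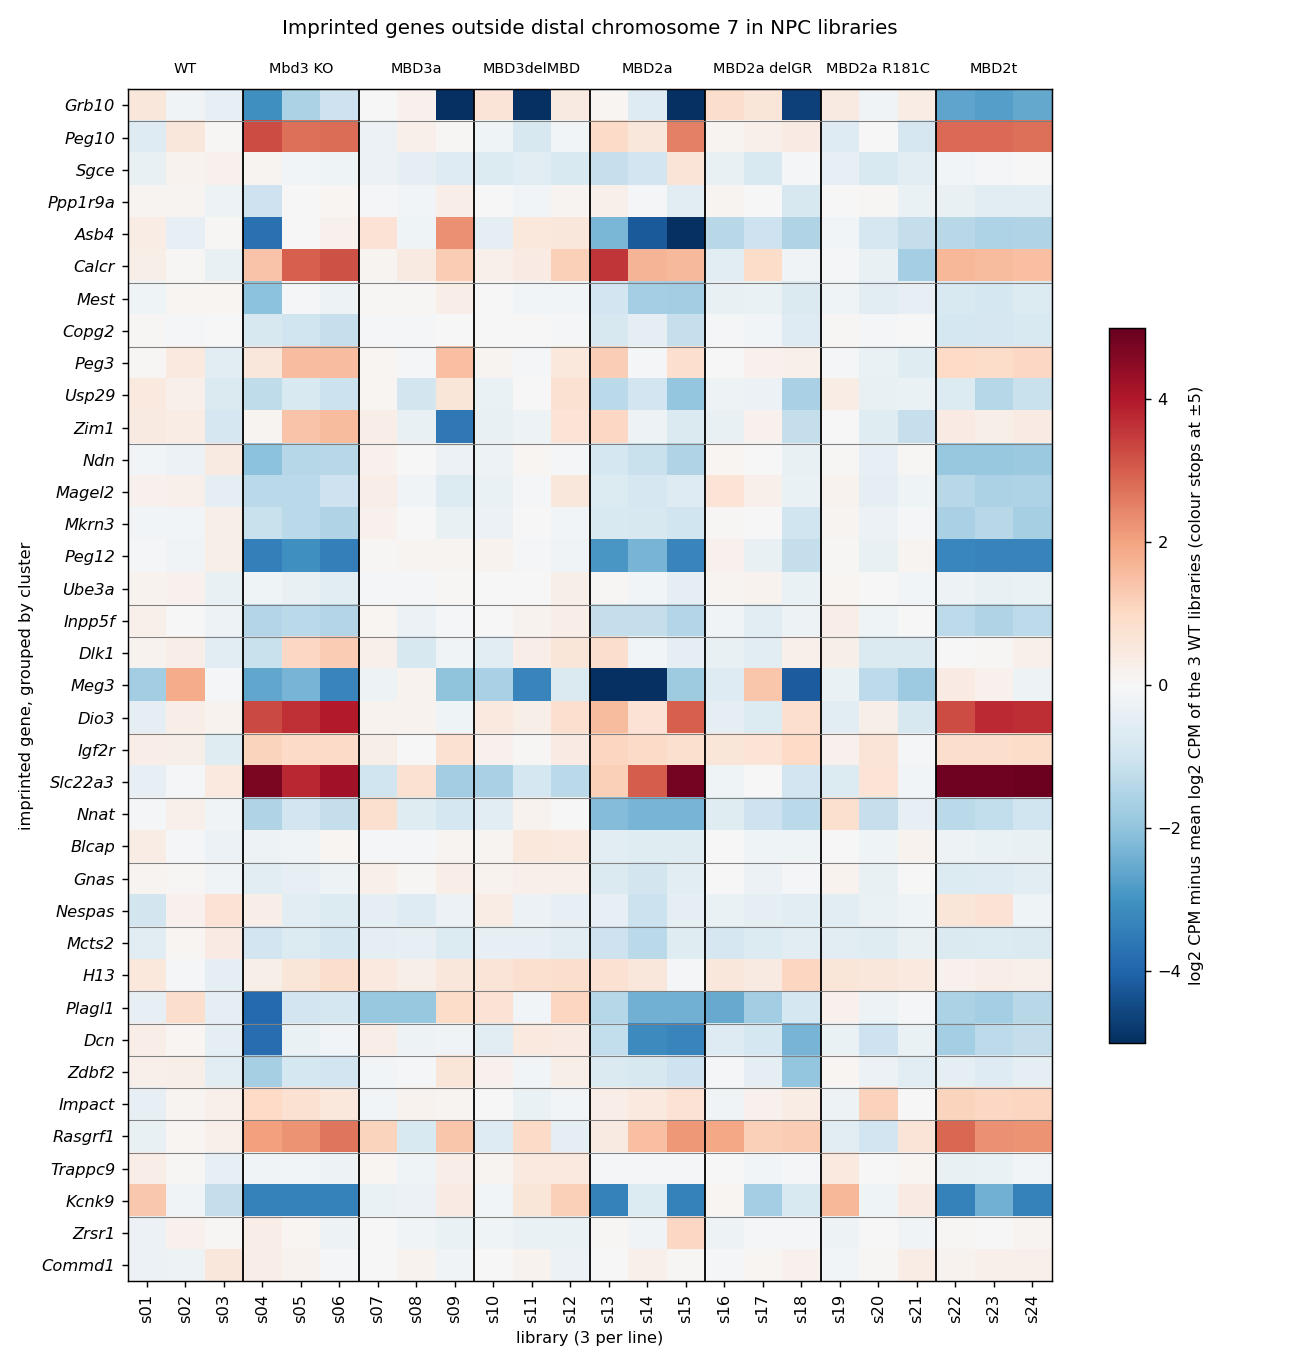
Levels of the 37 tested members (rows, grouped by cluster) in the 24 libraries (columns, 3 per line), as log2 CPM minus the mean of the WT libraries, with the colour ending at 5 in either direction. Peg12 is low and Peg10, Dio3 and Slc22a3 are high in Mbd3 KO and MBD2t, and Grb10 is dark in 1 library each of MBD3a, MBD3delMBD, MBD2a and MBD2a_delGR.

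Grb10 showed the widest differences between clones. It encodes an adaptor protein that restrains insulin and IGF receptor signalling, it is transcribed from the maternal copy in most tissues and from the paternal copy in neurons, and it lies on the minus strand of chromosome 11 (chr11:11830511-11938686, mm9). The WT libraries held 707, 423 and 355 CPM, and the MBD2a_R181C libraries 640, 414 and 609 CPM. In MBD3a the libraries held 474, 543 and 10.9 CPM, in MBD3delMBD 736, 9.57 and 641 CPM, in MBD2a 510, 305 and 13.99 CPM, and in MBD2a_delGR 865, 719 and 18.8 CPM. A single library of each of these 4 lines (s09, s11, s15 and s18) was therefore lower than the mean of the other 2 by 46.5-fold, 71.9-fold, 29.1-fold and 42.2-fold, while those other 2 lay within or above the WT range in 3 of the lines and reached down to 305 CPM in MBD2a.

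The Mbd3 KO libraries lay between these states, at 55.8, 158 and 231 CPM, and all 3 were below the lowest WT library. The MBD2t libraries, repeats of 1 clone, held 76.1, 70.1 and 80.7 CPM. The fitted log2 fold change against WT was -1.74 ± 1.30 in Mbd3 KO (SE; adjusted p = 0.256, edgeR quasi-likelihood) and -2.71 ± 1.35 in MBD2t (adjusted p = 0.0903, edgeR quasi-likelihood), and Grb10 was called in none of the 15 comparisons. The fit has 1 estimate of spread for Grb10 over the 8 lines, the 4 low libraries included. The summed neural markers of s09, s11, s15 and s18 were 2274, 3240, 148 and 1042 CPM, and the endoderm markers of s18 reached 17030 CPM against 991 to 1278 CPM in its line's other libraries. In s09 and s11 the neural sums lay among or above those of their lines, while s15 and s18 had the lowest of theirs, and the part of these differences in Grb10 was not tested.

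The drop was not seen in the neighbouring genes Fignl1, a AAA ATPase, and Ddc, which makes dopamine and serotonin. Ddc and Cobl, another neighbour, are themselves on the further list of imprinted genes described below. Fignl1, 121546 bases away, held 71.9 CPM in s09 (55.8 and 78.5 in the other MBD3a libraries), 57.3 in s11 (70.6 and 47.2), 102 in s15 (99.1 and 125) and 89.9 in s18 (67.3 and 85.5). Ddc, 32464 bases away, held 7.46, 7.88, 6.47 and 17.4 CPM in the same 4 libraries, and was below both others of its line only in s15 (11.7 and 8.25 CPM). Cobl, an actin nucleator on the other side of Grb10, was at 1.21 CPM in s11 (2.41 and 2.94 in the others) and 4.54 CPM in s18 (4.73 and 5.30), below both others in these 2 libraries and above both in s09 and s15. The median deviation of all genes on chromosome 11 from the line's other libraries stayed between -0.01 and 0.06 on the log2 scale in these 4 libraries.

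**Figure D3:**
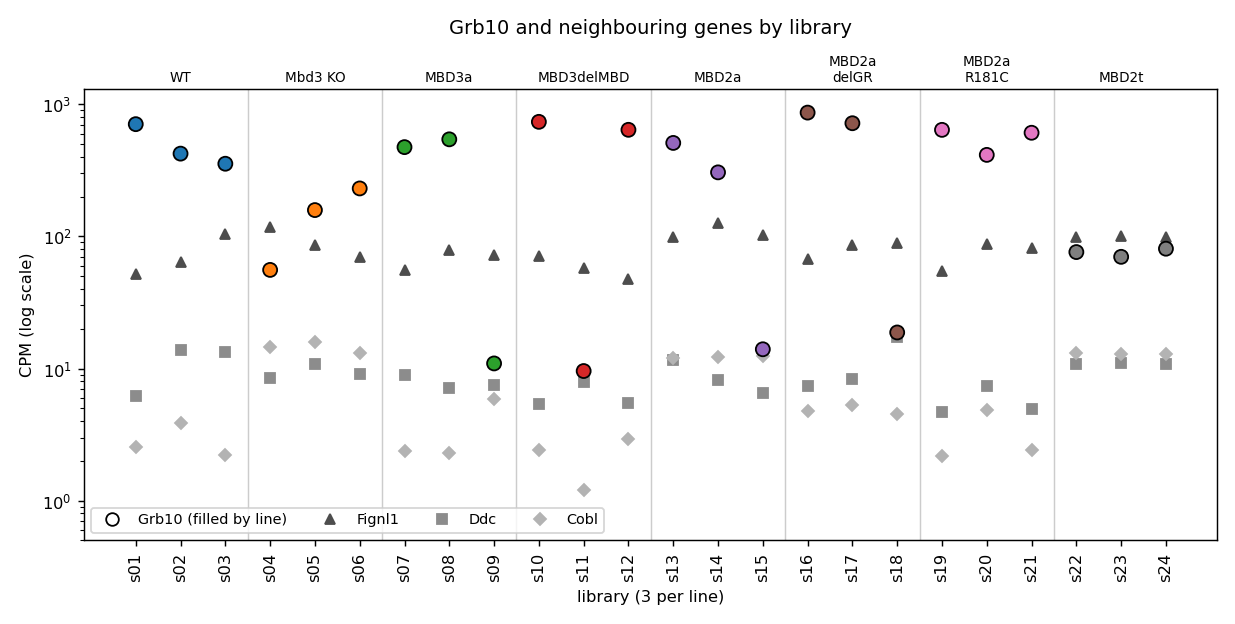
CPM (log axis) of Grb10 (filled circles, coloured by line) and of its neighbours Fignl1, Ddc and Cobl (grey) in each of the 24 libraries. Grb10 sits at 9.57 to 18.8 CPM in s09, s11, s15 and s18, while Fignl1 stays between 57.3 and 102 CPM in these 4 libraries.

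To place Grb10 among the other genes, a gene was taken as apart in a line when 1 library lay at least 2 (log2 CPM, 4-fold) from both others of its line and 1 of the libraries reached 1 CPM. This rule is a description, with no test. Among the members 12 of 296 pairs of gene and line met it (4.05%), against 1840 of 132656 pairs over all genes (1.39%). Of the 12, 4 were Grb10. The differences of Grb10 between clones were known when the members were chosen, so the members' share is not independent of them. MBD2t, the line of 1 clone, is in both totals. In s11 only 3 of the 16582 genes were apart, and Grb10 was 1 of them. In s09 there were 31 such genes, 3 of them members, in s15 211 with 2 members, in s18 506 with 2 members, and in s04 401 with 4 members. WT, MBD2a_R181C and MBD2t had no member apart, at 1.26%, 1.04% and 0.0724% of all genes.

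In the MBD3a library s09 several imprinted regions differed from the other clones at once. Zim1, a zinc finger gene of the Peg3 region known for maternal expression (chr7:6628154-6649161, mm9, minus strand), held 10.8, 6.56 and 0.694 CPM in s07, s08 and s09, and s09 was the lowest of all 24 libraries, the next being 3.74 CPM. Peg3, a paternally expressed zinc finger gene 7442 bases from it on the same strand, held 485, 423 and 1287 CPM, so that it was 2.83-fold higher in the library where Zim1 was 12.5-fold lower. Usp29, a deubiquitinase gene that is transcribed away from Peg3, held 3.29, 1.61 and 4.72 CPM. Plagl1, a paternally expressed zinc finger factor that restrains proliferation (chr10:12810497-12851500, mm9), held 59.1, 58.3 and 415 CPM, 7.06-fold higher in s09, and Asb4, a maternally expressed gene of the Peg10 region, held 10.7, 5.54 and 31.5 CPM, the highest of the series. The neural marker sum of s09 (2274 CPM) lay between those of the other MBD3a libraries, and its trophoblast sum was the lowest of the line (10.0 CPM against 22.8 and 52.2 CPM). Its genes on chromosome 19 had a median deviation of 0.25 (log2), against -0.12 and -0.14 in s07 and s08. The part of these differences was not tested.

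In the MBD2a library s15 the paternally expressed pair Peg10 and Sgce stood above the other clones. Peg10, a retrotransposon-derived gene that the placenta needs, and Sgce, which encodes a sarcoglycan, start next to each other on opposite strands (chr6:4697306-4710514 and chr6:4624350-4697204, mm9). Peg10 held 1095, 841 and 3211 CPM and Sgce 15.9, 17.9 and 55.2 CPM in s13, s14 and s15, ratios of 3.32 and 3.26 of s15 to the mean of the others, and 55.2 CPM was the highest Sgce level of all libraries. In Mbd3 KO, where Peg10 was higher still, Sgce did not leave the WT range: it held 38.5, 31.7 and 30.5 CPM against 27.0, 39.6 and 40.8 CPM in WT. Zrsr1, a paternally expressed retrogene inside an intron of Commd1, held 14.4, 12.4 and 28.4 CPM, and its next highest library of the series was at 17.4 CPM, while Commd1 itself held 54.2, 63.3 and 56.4 CPM. Zrsr1 and Commd1 overlap on opposite strands, and the setting for strand in the counting is not given in the sources used here.

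Library s15 also differed from the other clones in marker levels, with 447 CPM of trophoblast markers (57.0 and 86.7 in the others) and 148 CPM of neural markers (286 and 371). Its median deviation on chromosome 1 was -0.35 (log2), beside 0.173 in s13 and 0.135 in s14. The part of these differences in the levels of Peg10 and Sgce was not tested. Slc22a3 held 0.691, 2.56 and 8.77 CPM and Dio3 held 3.86, 2.12 and 10.2 CPM, both highest in s15, and without s15 their log2 fold changes against WT were 2.41 and 1.22 in place of 3.73 and 2.07, both still called.

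**Figure D4:**
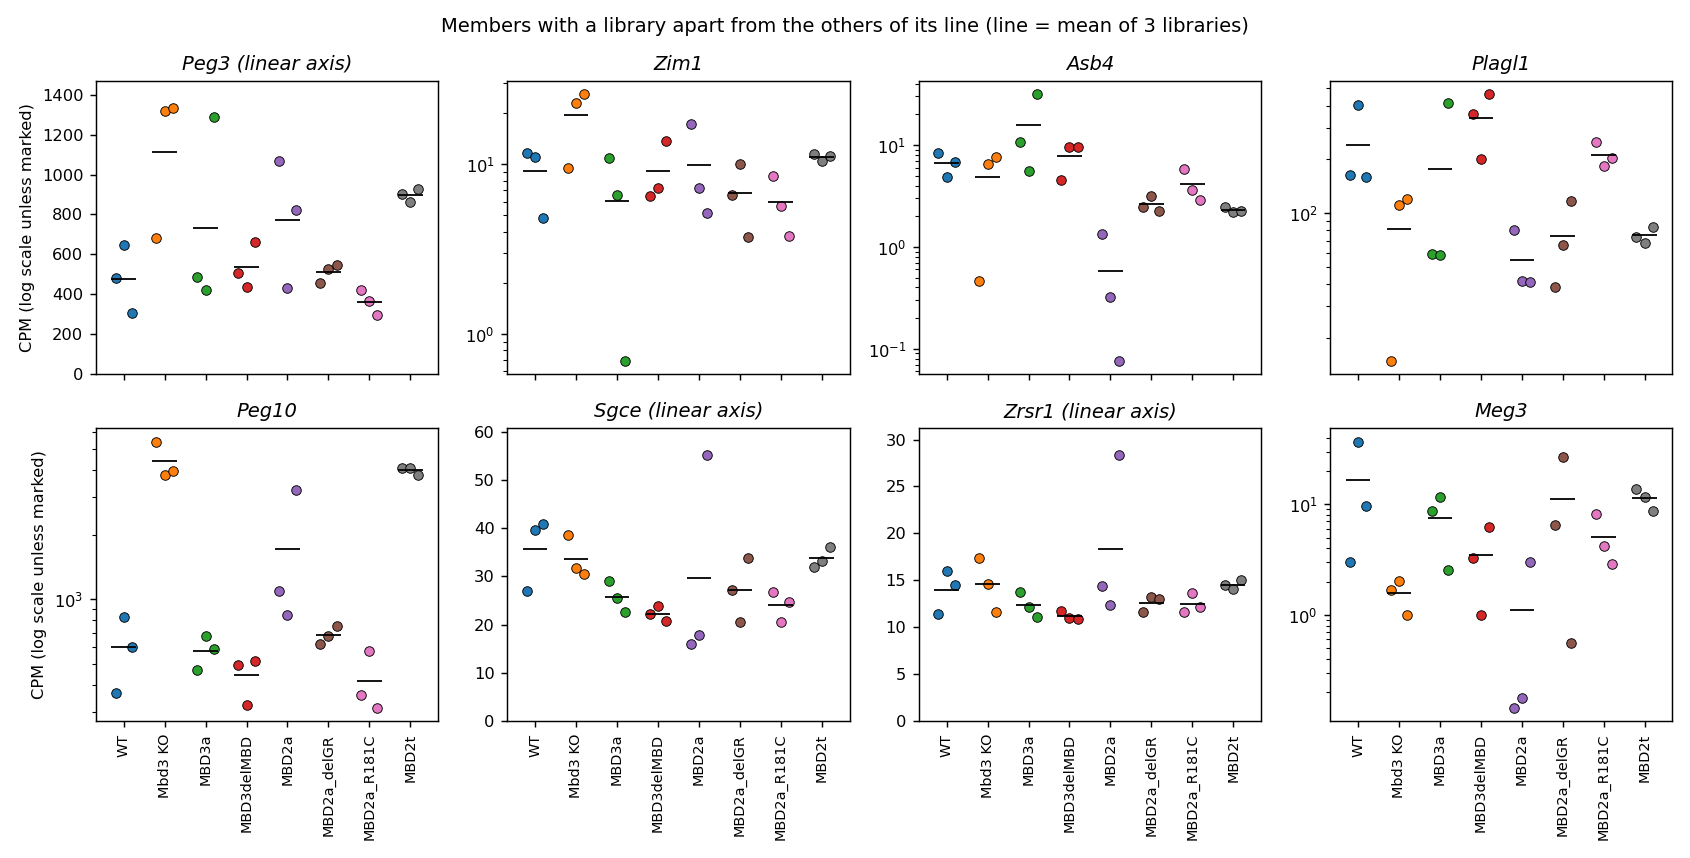
CPM in each library for 8 members, by line, with the line's mean as a bar (linear axes for Peg3, Sgce and Zrsr1, log axes for the others). The MBD3a library s09 has Peg3 at 1287 CPM with Zim1 at 0.694 CPM, and the MBD2a library s15 has Sgce at 55.2 CPM and Zrsr1 at 28.4 CPM.

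The Mbd3 KO library s04 was low for a different set of members. Plagl1 held 14.9, 111 and 119 CPM in s04, s05 and s06, and Dcn (decorin, a matrix proteoglycan) 0.315, 3.70 and 4.26 CPM. Dlk1, a paternally expressed transmembrane protein of the Notch ligand family, held 69.8, 309 and 370 CPM, and Asb4 0.457, 6.44 and 7.59 CPM. Mest, a paternally expressed hydrolase-fold gene of mesoderm, was at 118 CPM against 460 and 411 CPM, short of the 4-fold rule. Beside these values, s04 had the lowest sum of mesenchyme markers in its line (83.4 CPM, 173 to 194 in the others) and the highest sum of pluripotency markers (1003 CPM). Its median deviation on chromosome 1 was -0.39, beside 0.09 in s05 and 0.29 in s06. Whether those differences set the levels was not tested. In the MBD2a_R181C line, Impact, a paternally expressed regulator of translation, held 83.8, 220 and 99.0 CPM.

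Differences between libraries were wider for members than for all genes in each line, also in MBD2t, whose libraries hold no difference between clones. The differences of Grb10 between clones were known when the members were chosen, so the members' ranges are not independent of them. The median range over a line's 3 libraries, on the log2 scale, was 0.79 for members and 0.55 for all genes in WT, 0.80 and 0.43 in MBD2a, and 0.56 and 0.34 in MBD3a. It was 0.17 and 0.14 in MBD2t, the line of 1 clone.

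In the Peg10 region on chromosome 6, Peg10 rose in all comparisons of Mbd3 KO, MBD2a and MBD2t with WT. The WT libraries held 366, 832 and 598 CPM, the Mbd3 KO libraries 5418, 3783 and 3941 CPM, and the MBD2t libraries 4079, 4071 and 3781 CPM. The log2 fold change was 2.87 ± 0.41 in Mbd3 KO (SE; adjusted p = 9.9e-06, edgeR quasi-likelihood), 2.73 ± 0.40 in MBD2t (adjusted p = 1.54e-05, edgeR) and 1.52 ± 0.39 in MBD2a (adjusted p = 0.00277, edgeR). Without s15 the MBD2a value was 0.71 and no longer called. Per kilobase of exon, Peg10 went from the third highest member in WT (89.9 ± 35.0 CPM per kb, SD, n = 3) to 658 ± 135 CPM per kb in Mbd3 KO. In WT, Nnat (242 ± 39.8) and Mest (126 ± 14.6) stood above it, and the neighbours in that order, Peg10, Gnas (72.5 ± 7.94), Ndn (59.0 ± 16.7) and Grb10 (54.0 ± 20.4), overlapped in their spread.

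Calcr, the calcitonin receptor gene of the same chromosome, stood at 0.244 to 0.403 CPM in WT and at 0.915, 2.72 and 3.15 CPM in Mbd3 KO. It rose in Mbd3 KO (log2 2.81 ± 0.59, adjusted p = 0.000464, edgeR), in MBD2a (2.65 ± 0.60, with 4.06, 1.09 and 1.05 CPM) and in MBD2t (1.63 ± 0.65, adjusted p = 0.038, edgeR), where leaving out any 1 of the WT or MBD2t libraries ended the call. Without s13, the highest MBD2a library, the MBD2a value of Calcr was 1.72 and still called. Asb4 fell in MBD2a, from 4.81 to 8.32 CPM in WT to 1.32, 0.324 and 0.0765 CPM (log2 -3.56 ± 0.85, adjusted p = 0.00179, edgeR), and without s13 the value was -5.08. Sgce and Ppp1r9a, which encodes the actin-binding scaffold neurabin, were called in no comparison. The members of this region therefore did not share 1 direction.

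The paternally expressed genes of the Prader-Willi and Angelman region on chromosome 7 were lower in the lines with few neural markers. Peg12, a Frat family gene, held 60.3, 56.2 and 78.6 CPM in WT, 5.92, 7.57 and 5.92 CPM in Mbd3 KO, 8.43, 12.9 and 6.42 CPM in MBD2a and 6.70, 6.31 and 6.35 CPM in MBD2t, with no overlap between any of the 3 lines and WT. Its log2 fold changes against WT were -3.33 ± 0.29, -2.82 ± 0.28 and -3.33 ± 0.29 (adjusted p = 6.73e-08, 7.63e-07 and 6.69e-08, edgeR quasi-likelihood). Ndn, which encodes the neuronal MAGE protein necdin, fell by 1.62, 1.19 and 1.92 (log2), from 77.8 to 129 CPM in WT to 22.8 to 36.2, 33.5 to 51.5 and 25.2 to 26.2 CPM, and its MBD2a call was lost without the WT library s03. Magel2, another MAGE gene, and Mkrn3, a makorin gene, fell in Mbd3 KO (log2 -1.28 ± 0.31 and -1.34 ± 0.23) and MBD2t (-1.54 ± 0.31 and -1.57 ± 0.23), while MBD2a values of -0.75 and -0.88 passed the adjusted p (0.039 and 0.00275, edgeR) without the fold. Ube3a, a ubiquitin ligase gene that is maternally expressed in neurons, was called in no comparison, with 69.2 to 86.8 CPM in Mbd3 KO and 77.8 to 117 CPM in WT. Between lines, the paternally expressed genes were lower in Mbd3 KO, MBD2a and MBD2t than in WT, as was the sum of neural markers. By library this did not always hold. The WT library s03 had the lowest neural sum of WT (1810 CPM). It held the highest Peg12, Ndn and Mkrn3 of all libraries (78.6, 129 and 23.2 CPM), and the lowest Magel2 of WT (2.85 CPM). The part of cell type in these levels was not tested.

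In the Peg3 region, Peg3 rose in Mbd3 KO, where it held 682, 1320 and 1336 CPM against 479, 646 and 308 CPM in WT (log2 1.22 ± 0.38, adjusted p = 0.00987, edgeR). Without the WT library s03 Peg3 was not called. The value in MBD2t was 0.91 ± 0.38 and in MBD2a 0.70 ± 0.38, neither called. Usp29 fell in all 3 lines, with 1.26 to 1.82 CPM in Mbd3 KO against 1.83 to 4.27 CPM in WT (log2 -1.09 ± 0.43, adjusted p = 0.0344, edgeR), -1.47 ± 0.45 in MBD2a and -1.12 ± 0.42 in MBD2t. Peg3 and Usp29, whose RefSeq windows overlap, were called in opposite directions in Mbd3 KO. The calls of Usp29 did not hold under 6 of the 14 settings tried for Mbd3 KO. Zim1 was called lower in MBD3a, MBD2a_delGR and MBD2a_R181C than in Mbd3 KO (log2 -1.68, -1.52 and -1.69), and in no comparison with WT. The MBD3a value includes the clone s09, at 0.694 CPM against 10.8 and 6.56 CPM in s07 and s08. Mbd3 KO held 9.49, 22.9 and 25.8 CPM, so its library s04 lay within the MBD3a range.

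**Figure D5:**
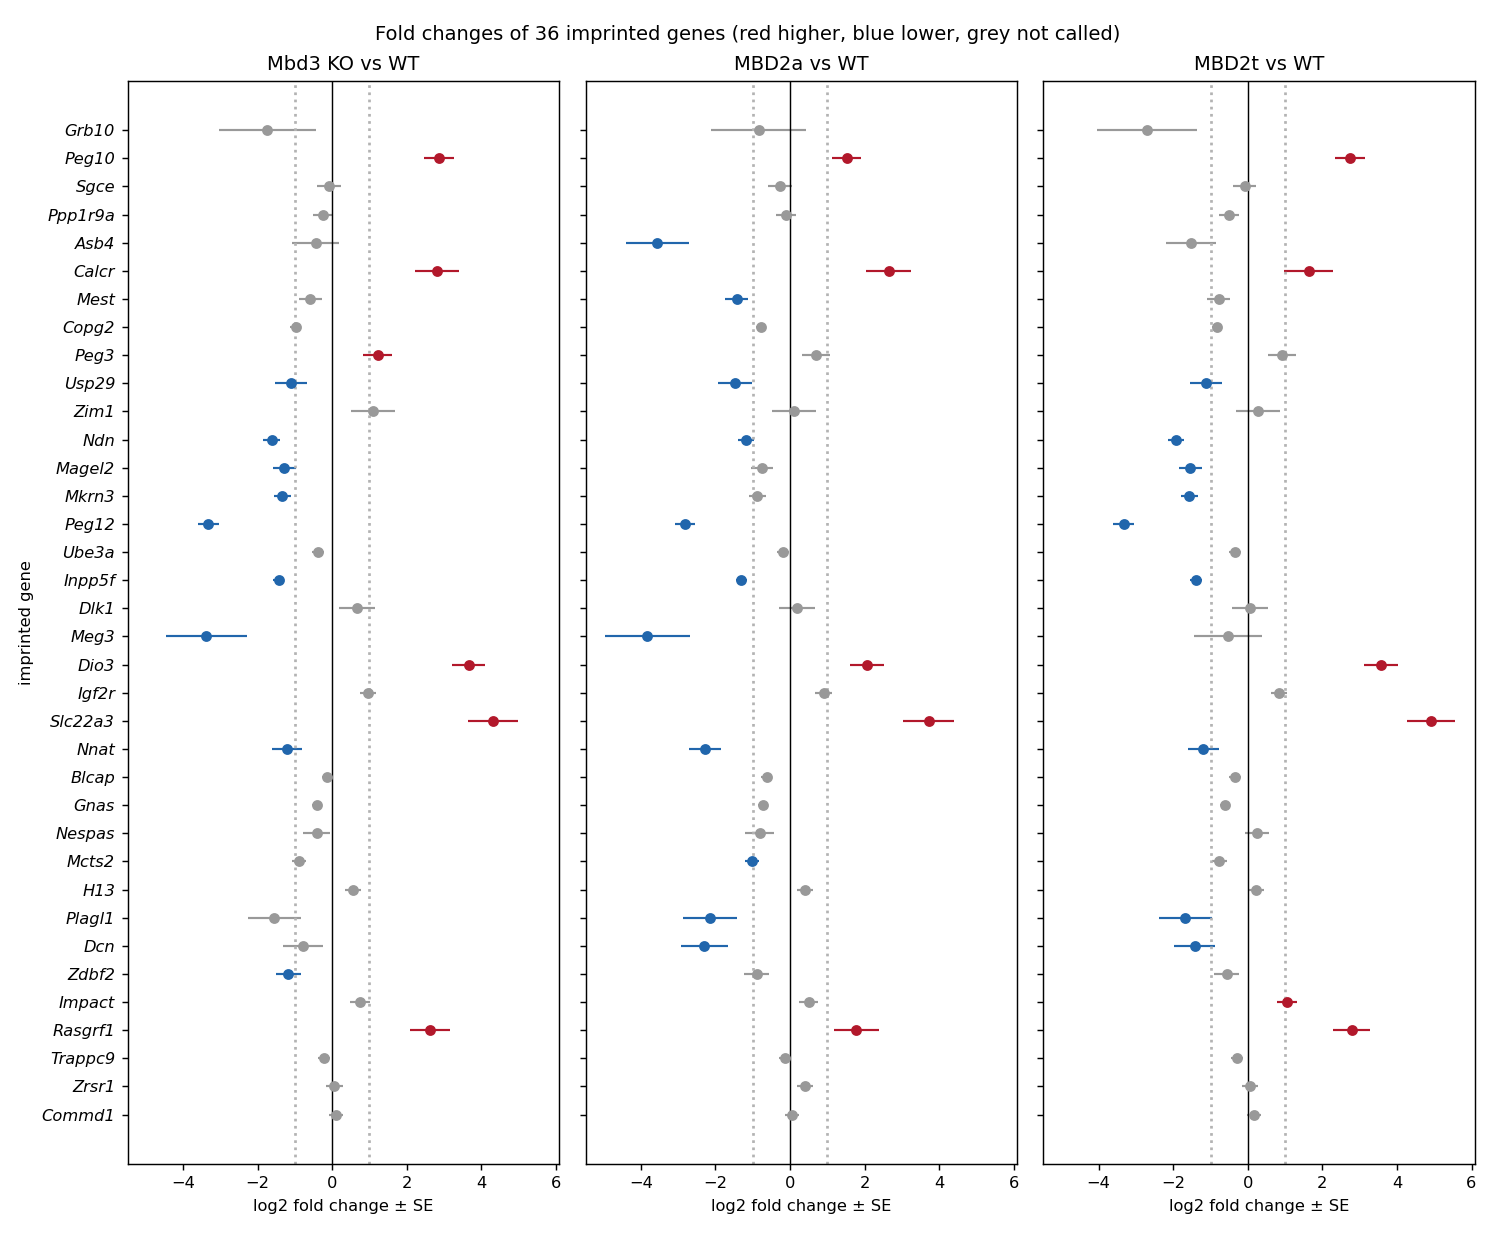
Log2 fold change with its SE for 36 members (Kcnk9, at 0 counts in Mbd3 KO, is left out) in Mbd3 KO, MBD2a and MBD2t against WT, with called genes in red (higher) or blue (lower) and dotted lines at 1 and -1. Peg12 lies between -3.33 and -2.82 and Slc22a3 between 3.73 and 4.92 in the 3 panels, and Grb10 has the widest error bar in each panel, with SE of 1.27 to 1.35.

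In the Dlk1-Dio3 region on chromosome 12, the paternally expressed Dio3 and the maternally expressed Meg3 moved in opposite directions in Mbd3 KO. Dio3, which inactivates thyroid hormone, held 0.886, 1.60 and 1.41 CPM in WT, 12.8, 16.3 and 20.2 CPM in Mbd3 KO, 3.86, 2.12 and 10.2 CPM in MBD2a and 12.5, 16.96 and 16.7 CPM in MBD2t. Each of these libraries was above the WT range, and the log2 fold changes were 3.66 ± 0.45 (adjusted p = 2.62e-06, edgeR), 2.07 ± 0.47 and 3.56 ± 0.45. MBD2a was lower than Mbd3 KO by a log2 of -1.59 ± 0.39 (adjusted p = 0.0134, edgeR). Dlk1, paternally expressed like Dio3, was called in no comparison.

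Meg3, a long noncoding RNA, varied more between clones than any other member of WT. Its levels were 3.03, 37.0 and 9.62 CPM in WT, 1.69, 2.04 and 1.00 CPM in Mbd3 KO, 0.144, 0.177 and 3.01 CPM in MBD2a and 13.6, 11.8 and 8.71 CPM in MBD2t. In MBD2a_delGR it held 6.48, 26.6 and 0.554 CPM. Meg3 fell in Mbd3 KO (log2 -3.37 ± 1.08, adjusted p = 0.0114, edgeR) and MBD2a (-3.82 ± 1.13, adjusted p = 0.00789, edgeR), and its value in MBD2t was -0.54 ± 0.90. Without the WT library s02, which held 37.0 CPM, the values were -1.998 and -2.45 and neither was called, and without s15 the MBD2a value was -6.65. The exons of Meg3 overlap annotated genes on both strands, so its counts are uncertain.

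At the Igf2r cluster on chromosome 17, Slc22a3, an organic cation transporter gene imprinted in the placenta, held 0.215, 0.275 and 0.414 CPM in WT and 8.38, 4.29 and 5.77 CPM in Mbd3 KO. MBD2t, at 9.34, 9.28 and 9.40 CPM, was the highest line. The log2 fold changes were 4.31 ± 0.66 in Mbd3 KO (adjusted p = 1.93e-05, edgeR), 3.73 ± 0.69 in MBD2a and 4.92 ± 0.65 in MBD2t (adjusted p = 3.87e-06, edgeR). Igf2r, the receptor that clears IGF2, held 236 to 262 CPM in Mbd3 KO against 80.2 to 152 CPM in WT, without overlap, and its log2 values of 0.95 ± 0.22, 0.90 ± 0.22 and 0.83 ± 0.22 passed the adjusted p (0.000946, 0.0018 and 0.00287, edgeR) but not the fold in Mbd3 KO, MBD2a and MBD2t. Trophoblast markers were higher in the same 3 lines, and their part in the Slc22a3 level was not tested.

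On chromosome 2, Nnat, which encodes the small membrane protein neuronatin of neurons, held 418, 524 and 385 CPM in WT, 156, 226 and 191 CPM in Mbd3 KO, 97.5, 87.2 and 88.7 CPM in MBD2a and 173, 188 and 221 CPM in MBD2t. The log2 fold changes were -1.21 ± 0.41, -2.28 ± 0.42 and -1.19 ± 0.41 (adjusted p = 0.0155, 0.000205 and 0.0171, edgeR). The Mbd3 KO call was lost without s02 or s04 and the MBD2t call without s02, s22 or s23. Blcap, the host gene of Nnat, was called in no comparison. Mcts2, a paternally expressed retrogene inside an intron of H13, fell in MBD2a (log2 -1.01 ± 0.20, adjusted p = 0.000284, edgeR), close to the threshold of fold, and 9 of 14 settings did not keep that call. Gnas, the stimulatory G protein gene, was lower by -0.40, -0.73 and -0.62 in the 3 lines with adjusted p of 0.0146, 0.000185 and 0.000583 (edgeR) and was not called, and its antisense RNA Nespas stood at 0.56 to 2.00 CPM over all libraries.

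Inpp5f, an inositol phosphatase gene on chromosome 7 with a paternally expressed transcript, had a small spread between libraries. It held 79.3, 67.5 and 55.7 CPM in WT, 23.99, 26.3 and 24.5 CPM in Mbd3 KO, 28.9, 28.9 and 24.3 CPM in MBD2a and 26.7, 23.6 and 26.8 CPM in MBD2t. It fell in all 3 lines (log2 -1.44 ± 0.15, -1.30 ± 0.15 and -1.39 ± 0.15, adjusted p = 5e-07, 2.72e-06 and 7.33e-07, edgeR). The counts join its transcripts, so the imprinted one was not measured alone.

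Plagl1 fell in MBD2a (log2 -2.15 ± 0.72, adjusted p = 0.0169, edgeR) and MBD2t (-1.68 ± 0.71, adjusted p = 0.0484, edgeR), with 40.9 to 80.3 and 68.1 to 83.8 CPM against 160, 401 and 163 CPM in WT. It stood at 38.4, 66.2 and 117 CPM in MBD2a_delGR and at 183 to 250 CPM in MBD2a_R181C. The MBD2a call of Plagl1 was lost without s02, s14 or s15, and the MBD2t calls of Plagl1 and Dcn each under 9 of 13 settings. Dcn fell in MBD2a (log2 -2.30 ± 0.62, and -3.31 without s13) and MBD2t (-1.43 ± 0.56), and Mest fell in MBD2a (-1.43 ± 0.31, adjusted p = 0.000865, edgeR), where it held 251, 153 and 148 CPM against 429, 527 and 531 CPM in WT. The mesenchyme markers were lower in those lines too. They summed to 147 to 490 CPM in WT, 57.2 to 141 CPM in MBD2a and 115 to 133 CPM in MBD2t. They were lowest in MBD2a_delGR, with a median sum of 45.9 CPM (275 CPM in WT) and 7 of 10 markers called lower. In Mbd3 KO the median sum was 173 CPM, with 6 of 10 markers called lower and 1 higher. Plagl1, Dcn and Mest were not called against WT in either line. The log2 values of Plagl1 and Dcn were -1.7 and -1.16 in MBD2a_delGR and -1.56 and -0.78 in Mbd3 KO. The part of the markers in these levels was not tested. Copg2, the coatomer gene that overlaps the end of Mest on the other strand, was lower in Mbd3 KO by a log2 of -0.97 ± 0.15 (adjusted p = 1.62e-05, edgeR), just short of the fold.

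Zdbf2, a paternally expressed zinc finger gene on chromosome 1, held 240, 246 and 142 CPM in WT and 63.9, 109 and 104 CPM in Mbd3 KO (log2 -1.18 ± 0.34, adjusted p = 0.00554, edgeR). Chromosome 1 had median deviations of -0.39, 0.09 and 0.29 (log2) in s04, s05 and s06. Each is taken from the line's other libraries and not from WT, so it does not show which clone departs. Without s04, the lowest library, the log2 value of Zdbf2 was -0.97 and short of the fold. Impact rose in MBD2t, with 213, 206 and 209 CPM against 75.3, 109 and 119 CPM in WT (log2 1.05 ± 0.26, adjusted p = 0.002, edgeR), a call lost without s01. Rasgrf1, a Ras exchange factor gene, rose in all 3 lines (log2 2.62 ± 0.53, 1.78 ± 0.60 and 2.79 ± 0.51), but at 0.0537 to 0.0974 CPM in WT, around the level of 3 counts, and 0.40 to 0.635 CPM in Mbd3 KO. Its MBD2a call was lost without s01 or s15. Kcnk9, a potassium channel gene imprinted in the brain, had 38 counts in the 3 WT libraries together and 0 in Mbd3 KO, which against a floor of 3 counts over the group is at least 11.8-fold lower (adjusted p = 0.0043, edgeR). The WT library s01 held 26 of these 38 counts, and without it the bound was 5.55-fold. The calls of Kcnk9 in MBD2a and MBD2t were lost without s01. With Kcnk9 at the bound from all 3 WT libraries the members' median in Mbd3 KO was still -0.40. Its neighbour Trappc9 was called in no comparison, nor were Zrsr1, Commd1 and H13, which encodes signal peptide peptidase.

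The lines with an added protein were also compared with Mbd3 KO. In MBD3a and MBD3delMBD, Peg10 was lower than in Mbd3 KO by log2 values of -2.92 ± 0.41 and -3.30 ± 0.41 (adjusted p = 9.88e-06 and 2.24e-06, edgeR) and Peg12 was higher by 3.40 ± 0.29 and 3.29 ± 0.29. MBD3a held 469, 677 and 586 CPM of Peg10 and MBD3delMBD 495, 321 and 519 CPM, within or just below the WT range. In MBD2a_delGR and MBD2a_R181C, Peg10 was lower than in Mbd3 KO by -2.68 ± 0.40 and -3.40 ± 0.42, and Slc22a3 by -4.74 ± 0.72 and -4.35 ± 0.66. In MBD2a, Peg10 was lower than in Mbd3 KO by -1.35 ± 0.39 (adjusted p = 0.033, edgeR) and Asb4 by -3.12 ± 0.87 (adjusted p = 0.0294, edgeR). The count of 3 members in that comparison was also 1 without s05 or s13.

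MBD2a was also compared with its 2 variants. In MBD2a_delGR, Peg12 held 74.0, 49.9 and 28.5 CPM and was higher than in MBD2a by a log2 of 2.46 ± 0.28 (adjusted p = 1.04e-05, edgeR), and Slc22a3 was lower by -4.16 ± 0.75. In MBD2a_R181C, Peg12 held 67.2, 49.9 and 71.1 CPM (log2 2.76 ± 0.28, adjusted p = 1.28e-06, edgeR), Nnat was higher by 2.23 ± 0.42 and Asb4 by 2.88 ± 0.88, and Peg10 was lower by -2.05 ± 0.39. The direct contrast of the 2 variants was not made.

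Of 21 genes that set or keep imprints, a list that includes Zfp57, Trim28 and the DNA methyltransferases, 3 were called in Mbd3 KO against WT (14.3%, beside 33.8% of all genes), 4 in MBD2a (19%, beside 30.6%) and 3 in MBD2t (14.3%, beside 33.4%), with a median log2 fold change of -0.06 in Mbd3 KO. Dnmt3l, a cofactor of de novo methylation that is high in pluripotent cells, rose by 4.73 ± 0.99 and Dnmt3b by 1.39 ± 0.25 in Mbd3 KO, and Ezh2, the Polycomb methyltransferase, fell by 1.16 in log2 units (adjusted p = 0.000448, 0.000125 and 3.04e-07, edgeR). Zfp57 was at 33.5 to 41.5 CPM in Mbd3 KO and 43.9 to 66.2 CPM in WT and was not called. Against WT, edgeR called 0 of the 21 in MBD3a, MBD3delMBD, MBD2a_delGR and MBD2a_R181C, with 0, 2, 2 and 0 at an unadjusted p under 0.05. The 4 clones with low Grb10 had summed levels of these genes of 3615, 3373, 2956 and 2936 CPM (s09, s11, s15 and s18). The other libraries of their lines held 3170 and 3306 CPM (MBD3a), 3682 and 3466 (MBD3delMBD), 3174 and 3259 (MBD2a) and 3513 and 3458 (MBD2a_delGR). Library s09 was thus the highest of its line, and s11, s15 and s18 the lowest of theirs. A sum does not show single genes, and the part of these genes in the Grb10 levels was not tested.

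A further list of 24 imprinted genes outside distal chromosome 7 had 18 tested, of which 9 were called in Mbd3 KO (6 higher, 3 lower), 9 in MBD2a (6 higher, 3 lower) and 9 in MBD2t (7 higher, 2 lower). These are 50% of the genes tested in each of these lines, beside 33.8%, 30.6% and 33.4% of all genes. Against WT, 2 of the 18 were called in MBD2a_delGR, both lower (11.1%, beside 5.16% of all genes). The count was 0 in MBD3a, MBD3delMBD and MBD2a_R181C. The median log2 fold change of this list in Mbd3 KO was 0.40. Sfmbt2, a Polycomb group gene of the placenta, rose by 4.02 ± 0.69 and Slc38a4, an amino acid transporter gene of the placenta, by 2.82 ± 0.41 in Mbd3 KO (adjusted p = 7.05e-05 and 1.38e-05, edgeR), and Nap1l5 fell by 1.49. Cobl, the neighbour of Grb10, rose by 2.35 ± 0.33 in Mbd3 KO (adjusted p = 9.31e-06, edgeR), while Grb10 in the same libraries was at 55.8 to 231 CPM.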

How the data were processed

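Poly-A RNA of 24 NPC libraries (8 lines, 3 libraries each) was analysed, and the 6 ChIP-seq samples were not used here. Per the study's methods and the deposited table, the authors trimmed 150-base single-end reads from a directional kit with Trim Galore, aligned them with STAR to mm9 and counted reads per gene of the GENCODE M1 annotation. The deposited values are whole counts per gene with no normalization, and the strand setting of the counting is not given in the sources used here. The columns name a line and a library number but no replicate number. The point mutant column carries another residue number than the label R181C and was taken as that line because it is the only point mutant.

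Low genes were removed with filterByExpr (grouped by line), and the counts were scaled by TMM and fitted in 1 edgeR 4.0.16 quasi-likelihood model (R 4.3.3) over the 24 libraries, with line as the only factor. P-values were adjusted by Benjamini-Hochberg over 16582 genes, and calls needed an adjusted p under 0.05 and an absolute log2 fold change over 1. CPM use TMM-scaled totals, and log2 CPM a prior count of 1. SE are the log2 fold change divided by the root of F. All 41 listed members are named or accounted for, and values per library are given for called members and those with a clone apart. The members and gene lists were chosen with earlier results of these data known. Tested on simulated data with 200 changed genes among 15770 for Mbd3 KO against WT, 73 of 100 4-fold and 85 of 100 8-fold changes were called, with 7 false calls. Only Mbd3 KO was changed there, while 5609 genes were called in the data, so these false calls do not give the error of the real calls. Positions come from GENCODE M1 (mm9), promoter sequences from RefSeq (GRCm38.p6). Alternatives were RLE factors, library size only, no filter, glmTreat, DESeq2 1.42.0, fits of 2 lines or without MBD2t, each library left out, and, chosen after seeing the data, edgeR's legacy fit.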

Additional observations from a re-analysis of the deposited data

How the results depend on the processing

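No paired analysis was possible because the columns of the count table carry no replicate number, so no replicate block could be fitted. Of 213 counts of called members recomputed, 191 stayed within 1.5 times the main count and 22 did not. With glmTreat at a log2 fold change of 1, the counts were 9 for Mbd3 KO, 9 for MBD2a and 9 for MBD2t against WT, 7 for MBD3a, 9 for MBD3delMBD, 0 for MBD2a, 6 for MBD2a_delGR and 9 for MBD2a_R181C against Mbd3 KO, and 2 for MBD2a_delGR and 7 for MBD2a_R181C against MBD2a. This test asks for more than 2-fold by its own construction. With only the 2 lines compared in the fit, MBD2a against Mbd3 KO gave 1 call and MBD2a_delGR against MBD2a gave 3, and without MBD2t in the fit, MBD2a against Mbd3 KO gave 1 (the cause was not tested). Lowering the gap that sets a library apart from 2 to 1 on the log2 scale gave 44 pairs in place of 12, and the other settings gave 9 to 13.

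With each library left out in turn, the counts against WT ran from 15 to 17 (Mbd3 KO), 13 to 16 (MBD2a), 11 to 15 (MBD2t), 0 to 0 (MBD3a, MBD3delMBD and MBD2a_R181C) and 0 to 1 (MBD2a_delGR). Against Mbd3 KO they ran from 13 to 15 (MBD3a), 13 to 16 (MBD3delMBD), 0 to 4 (MBD2a), 8 to 12 (MBD2a_delGR), 12 to 15 (MBD2a_R181C) and 0 to 0 (MBD2t), and against MBD2a from 6 to 11 (MBD2a_delGR) and 9 to 16 (MBD2a_R181C). For MBD2a against Mbd3 KO the count was 1 without s05 or s13 and 0 without s06 or s14. For MBD2a_R181C against MBD2a it was 9 without s15 or s19, and for MBD2a_delGR against Mbd3 KO it was 8 without s06. The log2 fold change of Grb10 against WT changed sign in 7 cases and ran from -1.023 to 0.039 in MBD3a (0.039 without s09), from -0.606 to 0.473 in MBD3delMBD (0.225 without s01, 0.473 without s11), from -0.447 to 0.678 in MBD2a_delGR (log2 fold change of Grb10 MBD2a_delGR vs WT of -0.081 without s03, -0.447 without s16, -0.161 without s17) and from -0.027 to 0.486 in MBD2a_R181C (-0.027 without s03). None of these was called. Depth limits Kcnk9, Rasgrf1, Calcr and Slc22a3, which stood under 1 CPM in WT.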
